A study of Mus musculus with 10 samples.

Results

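The genes described here were A2m, Prss35, Nrk, C1qtnf3, Adam12, Plekhg4, Lrrc17 and Gm36827, chosen because their counts were much lower in every aged femur than in every young one. They were 8 of the 38962 genes in the count table, and all 8 passed the filter on low counts that kept 22088 genes for testing. RNA was sequenced from the femurs of 5 aged C57BL/6J male mice, 22 months old, and 5 young C57BL/6J male mice, 2 months old, with 1 library per mouse and no treatment or altered allele in either group. The aged mice came from the colony of the National Institute on Aging and were kept in house until 22 months, while the young mice were bought from the Jackson Laboratory, so age and supplier cannot be told apart. The study's methods give the material as femur cortex flushed of marrow and then pulverized, and the labels give the tissue as bone. The comparison addressed how the transcripts of bone differ between old and young mice. Because the members were picked on this contrast, their levels and fold changes are given as a description and without a test.

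Of the 8 genes 7 code for proteins, and most of these act outside the cell or at its surface. Bone is built and remodelled by cells that signal to each other through secreted proteins held in the matrix, through proteases and protease inhibitors that set how long such signals last, and through kinases and their partners that carry signals inside the cell. Osteoblasts make the matrix, osteoclasts resorb it, and chondrocytes of the growth plate lay down the cartilage that bone replaces while a young animal grows.

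Library totals were 31788232 to 45075335 counts in aged mice (median 43800007) and 33447009 to 40395050 in young mice (median 37345752). The single transcript Gm26917 took 24.5% ± 6.65 of the counts in aged mice and 19.1% ± 4.16 in young mice (SD, n = 5 each). Osteoblast markers took 2.56% ± 0.928 of the counts in aged mice and 6.72% ± 1.35 in young mice (SD, n = 5 each, exact permutation test, two-sided p = 0.00794, the smallest that 5 against 5 allows), and were present in every library, as the label of bone implies. Skeletal muscle markers took 2.21% ± 0.583 of the counts in aged mice and 1.77% ± 0.606 in young mice, and red cell precursor markers took 0.529% ± 0.335 in aged mice and 0.764% ± 0.319 in young mice (exact permutation p = 0.278 and 0.238, n = 5 each). In bulk RNA, fewer cells of a type and less RNA per cell cannot be told apart.

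All 8 genes had every aged library below every young library, a pattern that 4.12% of the tested genes showed, and nothing is read from it since the members were chosen for it. The fitted log2 fold changes (aged over young, edgeR) ran between -4.68 and -1.33 with a median of -2.63, while the median over all tested genes was 0.01. Levels are given as CPM, the counts of a gene relative to the total of its library, scaled between libraries by the trimmed mean of M values.

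A2m encodes alpha-2-macroglobulin, a large secreted protein that traps proteases of several classes and is then cleared through the receptor Lrp1 (ENSMUSG00000030111.9, GRCm38 chr6:121635376-121679227, plus strand). It was at 0.0280, 0.259, 0.190, 0.0937 and 0.152 CPM in aged mice 1 to 5, against 3.28, 4.94, 6.00, 3.21 and 1.89 CPM in young mice 1 to 5. Aged mouse 1 was the lowest and young mouse 5 was the lowest of the young, and the groups were 7.29-fold apart at their nearest libraries. These levels rest on 1 to 13 counts per library in aged mice and 80 to 196 in young mice, 29 counts against 731 over the groups. The log2 fold change was -4.68 with a standard error of 0.42, the lowest of all tested genes.

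Prss35 encodes a secreted member of the trypsin family that lacks the usual active-site serine and is known in the mouse from the remodelling of ovary matrix (ENSMUSG00000033491.13, chr9:86743649-86758443, plus strand). It was at 4.47, 7.82, 2.66, 4.31 and 7.95 CPM in aged mice 1 to 5, against 59.5, 42.1, 47.5, 41.5 and 30.5 CPM in young mice 1 to 5. Aged mice 2 and 5 were well above aged mouse 3, and even the lowest young library was 3.84-fold above the highest aged one. The log2 fold change was -3.01 with a standard error of 0.29.

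C1qtnf3 encodes a secreted protein with a collagen-like stretch and a C1q domain, which in the mouse is made by cartilage of the growth plate and promotes the growth of cartilage precursors in culture (ENSMUSG00000058914.12, chr15:10952332-10980150, plus strand). It was at 1.12, 0.577, 0.607, 0.211 and 0.304 CPM in aged mice 1 to 5, against 6.31, 7.76, 5.37, 3.40 and 3.33 CPM in young mice 1 to 5. Aged mouse 1 stood highest of its group, young mice 4 and 5 lowest of theirs, and the groups did not overlap. Libraries held 9 to 40 counts in aged mice and 141 to 308 in young mice, and the log2 fold change was -3.23 with a standard error of 0.39.

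Lrrc17 encodes a secreted leucine-rich repeat protein that osteoblasts make and that, in mouse cell culture, restrains the forming of osteoclasts under RANKL (ENSMUSG00000039883.5, chr5:21543559-21575904, plus strand). It was at 2.49, 2.57, 2.13, 1.66 and 3.67 CPM in aged mice 1 to 5, against 6.05, 8.14, 7.56, 8.27 and 8.09 CPM in young mice 1 to 5. Young mice 2 to 5 lay within a narrow band and young mouse 1 below it, still 1.65-fold above aged mouse 5. The log2 fold change was -1.60 with a standard error of 0.19.

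Adam12 encodes meltrin alpha, a metalloprotease at the surface of muscle precursors and bone-forming mesenchyme that cleaves insulin-like growth factor binding proteins (ENSMUSG00000054555.11, chr7:133883199-134232146, minus strand). It was at 27.3, 26.1, 25.1, 29.7 and 37.7 CPM in aged mice 1 to 5, against 77.4, 68.5, 89.0, 69.7 and 63.1 CPM in young mice 1 to 5. Aged mouse 5 was the highest of its group and young mouse 5 the lowest of its own, 1.67-fold apart. With 662 to 1490 counts per library in aged mice and 2567 to 3338 in young mice it was the most deeply counted member, and its log2 fold change of -1.33 had the smallest standard error of the 8, 0.13.

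Nrk encodes a protein kinase of the germinal center kinase family, on the X chromosome, which is known in the mouse from the placenta and which activates the JNK cascade in cultured cells (ENSMUSG00000052854.15, chrX:138914430-139010532, plus strand). It was at 0.503, 0.378, 0.304, 0.187 and 0.304 CPM in aged mice 1 to 5, against 2.98, 3.05, 2.25, 3.69 and 1.82 CPM in young mice 1 to 5. Aged mouse 4 was the lowest and young mouse 4 the highest of all libraries, and the groups were 3.61-fold apart at their nearest. Counts were 8 to 19 per library in aged mice and 65 to 177 in young mice, and the log2 fold change was -3.03 with a standard error of 0.28.

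Plekhg4 encodes puratrophin-1, a signalling protein inside the cell (ENSMUSG00000014782.16, chr8:105373274-105382862, plus strand). It was at 3.75, 2.87, 5.16, 3.70 and 3.85 CPM in aged mice 1 to 5, against 13.9, 11.8, 16.7, 10.2 and 17.9 CPM in young mice 1 to 5. Aged mouse 3 was the highest of its group and young mouse 4 the lowest of its own, 1.99-fold apart. The log2 fold change was -1.87 with a standard error of 0.18.

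Gm36827 is a long noncoding RNA gene to which no role is given here (ENSMUSG00000112327.1, chr10:56970329-56982232, minus strand). It was at 0.727, 0.836, 0.569, 0.750 and 1.04 CPM in aged mice 1 to 5, against 4.26, 3.88, 4.06, 3.42 and 3.42 CPM in young mice 1 to 5. The young libraries lay close together, with a coefficient of variation of 9.90%, the smallest of any member in either group. That of the aged libraries was 21.9%. Counting error alone would give 8.19% in young mice and 17.9% in aged mice. Libraries held 15 to 42 counts in aged mice and 117 to 166 in young mice. The log2 fold change of Gm36827 was -2.26 with a standard error of 0.18.

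**Figure D1:**
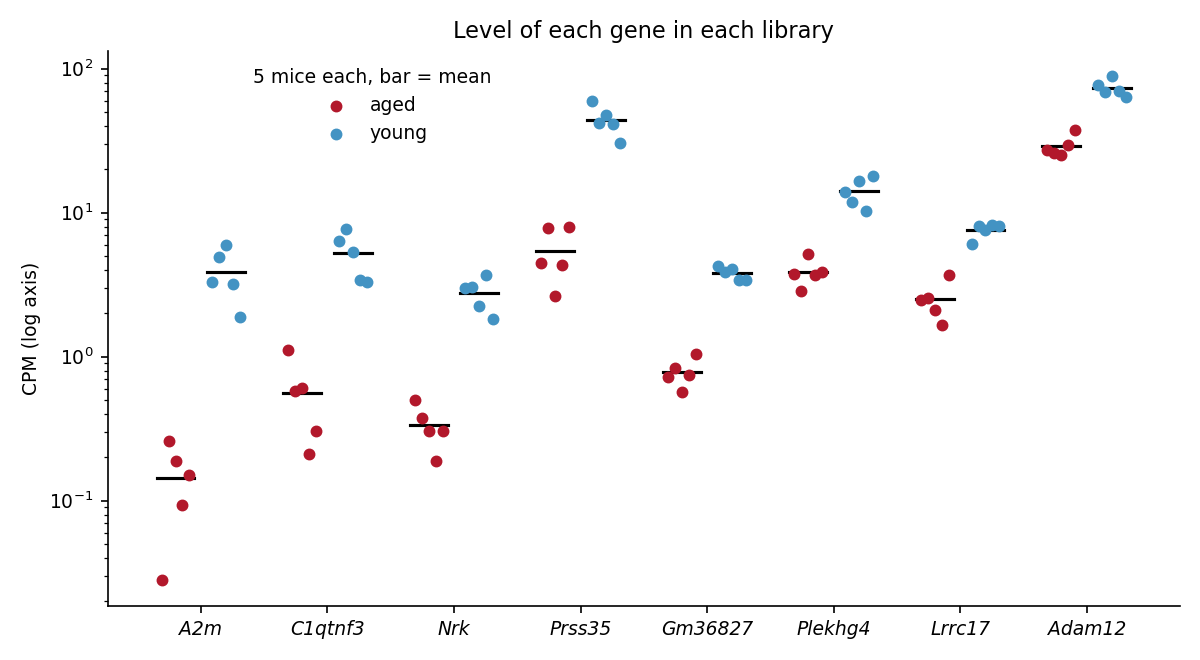
Level of each of the 8 genes in CPM on a log axis, with aged libraries on the left and young libraries on the right for each gene and 1 point per mouse. No gene has an aged library at or above a young one, and A2m has the widest separation, with means of 0.144 CPM in aged mice and 3.86 CPM in young mice.

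The windows of 250 bases before the RefSeq start (GRCm38.p6) were read for 6 of the 8 genes, since members that differ together between the ages can be compared there. The base composition of these windows ran between extremes. Nrk had 76.4% G and C with 24 CG pairs, above 97.0% of the 32817 windows of the table in G and C, while Gm36827 had 35.6% with 1 CG pair, above only 5.41% of them. Prss35 had 50.8%, C1qtnf3 and Lrrc17 each 49.2% and Plekhg4 61.6%, beside a median of 52.4% over all windows. The Plekhg4 window, at chr8:105374977-105375226, lies inside the gene as counted, after the start of chr8:105373274-105382862. The letters TATAAA, on either strand, were in 3 of the 6 windows (C1qtnf3, Lrrc17 and Gm36827) and in 12.4% of all windows. The letters CCAAT, on either strand, were in 3 of the 6 (Prss35, Nrk and Lrrc17) and in 33.8% of all windows. CANNTG was in 3 of the 6 (C1qtnf3, Nrk and Lrrc17) and in 66.2% of all, while TGTGGT (14.0% of all windows) and TGANTCA (6.75%) were in none, both strands searched. Hits of different motifs were allowed to overlap. The 4 windows that show the spread are printed 5′ to 3′ on the strand of the gene. Capitals mark CG pairs in Nrk at chrX:138914180-138914429, plus strand.
Nrk: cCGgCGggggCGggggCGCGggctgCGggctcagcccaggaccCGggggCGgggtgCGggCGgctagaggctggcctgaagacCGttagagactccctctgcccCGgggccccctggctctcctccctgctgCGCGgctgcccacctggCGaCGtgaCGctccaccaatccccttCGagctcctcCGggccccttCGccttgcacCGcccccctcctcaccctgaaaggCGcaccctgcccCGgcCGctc
In Prss35 at chr9:86743383-86743632, plus strand, capitals mark CCAAT read on the opposite strand, which begins 171 bases before the start.
Prss35: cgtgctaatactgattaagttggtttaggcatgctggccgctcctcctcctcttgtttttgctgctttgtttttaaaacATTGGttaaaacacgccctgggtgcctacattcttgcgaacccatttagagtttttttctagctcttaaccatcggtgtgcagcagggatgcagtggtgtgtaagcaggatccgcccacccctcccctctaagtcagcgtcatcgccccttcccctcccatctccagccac
In C1qtnf3 at chr15:10952082-10952331, plus strand, capitals mark TATAAA, which ends at the last base before the start.
C1qtnf3: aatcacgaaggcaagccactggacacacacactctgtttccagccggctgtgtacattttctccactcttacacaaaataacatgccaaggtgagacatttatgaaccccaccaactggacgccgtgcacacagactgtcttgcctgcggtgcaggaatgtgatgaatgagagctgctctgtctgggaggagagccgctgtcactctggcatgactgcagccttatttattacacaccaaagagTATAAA
In Gm36827 at chr10:56982232-56982481, minus strand, capitals mark TATAAA read on the opposite strand, beginning 122 bases before the start.
Gm36827: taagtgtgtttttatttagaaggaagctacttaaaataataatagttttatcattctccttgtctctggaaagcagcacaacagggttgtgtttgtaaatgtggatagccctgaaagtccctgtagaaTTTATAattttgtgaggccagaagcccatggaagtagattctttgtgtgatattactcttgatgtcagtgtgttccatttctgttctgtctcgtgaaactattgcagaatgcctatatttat

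Scaled for the length of merged exons as TPM, in which the values of a library have a fixed sum, Prss35 had the highest level of the 8 genes in young mice and Adam12 the highest in aged mice. Prss35 averaged 2.77 ± 1.76 TPM in aged mice and 27.7 ± 8.67 TPM in young mice, and Adam12 averaged 4.54 ± 1.16 TPM in aged mice and 14.8 ± 2.51 TPM in young mice (SD, n = 5 each). Within single libraries the level of Prss35 over that of Adam12 was 0.325 to 0.921 in the aged mice, so that Prss35 was the lower in 5 of 5, against 1.49 to 2.36 in the young mice, where it was the higher in 5 of 5. A2m and Nrk also changed places at the bottom of the order, but on few counts in aged mice, 1 to 13 and 8 to 19 per library. A2m over Nrk was 0.0729 to 0.898 in aged mice and 1.14 to 3.49 in young mice.

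Gm36827, Plekhg4, Lrrc17 and C1qtnf3 filled the middle of the order. Gm36827 averaged 1.06 ± 0.398 TPM in aged mice and 6.55 ± 1.34 TPM in young mice, Plekhg4 1.14 ± 0.199 TPM in aged and 5.38 ± 0.802 TPM in young mice, and Lrrc17 1.15 ± 0.439 TPM in aged and 4.58 ± 1.23 TPM in young mice (SD, n = 5 each). Neighbours among them did not keep a fixed order: Plekhg4 was above Lrrc17 in 2 of 5 aged and 3 of 5 young libraries. Lrrc17 was above Gm36827 in 4 of 5 aged and in 0 of 5 young libraries. C1qtnf3 averaged 0.394 ± 0.304 TPM in aged mice and 4.43 ± 1.99 TPM in young mice, and was above Lrrc17 in 0 of 5 aged and 3 of 5 young libraries. A2m averaged 0.0360 ± 0.0327 TPM in aged mice and 1.15 ± 0.422 TPM in young mice, and Nrk 0.0639 ± 0.0364 TPM in aged mice and 0.670 ± 0.296 TPM in young mice.

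**Figure D2:**
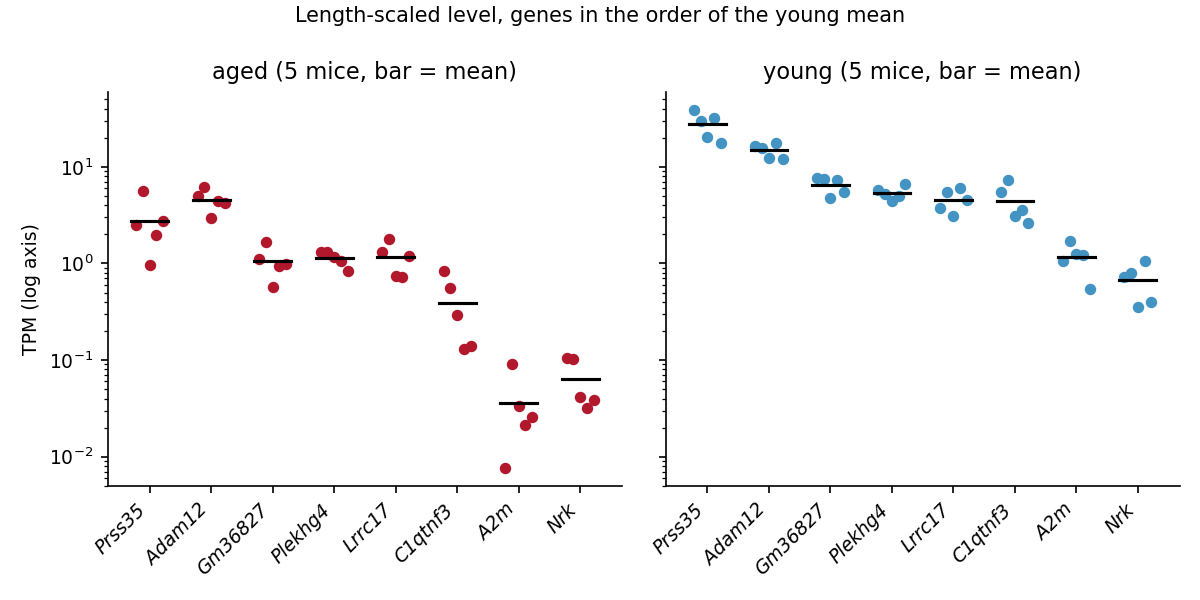
Level of each gene in TPM on a log axis, aged libraries in the left panel and young libraries in the right panel, with genes in the order of their young means and 1 point per mouse. Prss35 stands above Adam12 in the young panel (27.7 and 14.8 TPM) and below it in the aged panel (2.77 and 4.54 TPM).

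The 8 genes did not vary alike among mice of 1 age. The coefficient of variation of the CPM in aged mice was highest for C1qtnf3 and A2m, at 62.9% and 61.3%, of which counting error alone would give 21.7% and 41.5%. For Nrk it was 34.6% in aged mice, where counting error alone would give 27.7%. Among aged mice it was lowest for Adam12, at 17.4%, and among young mice for Gm36827. Aged mouse 5 was the highest of its group in 4 genes (Prss35, Adam12, Lrrc17 and Gm36827), and its median deviation from the mean of the aged mice was 0.29 on the log2 scale. Aged mouse 4 was the lowest in Nrk, C1qtnf3 and Lrrc17, with a median deviation of -0.25. Young mouse 5 was the lowest of its group in 6 genes (A2m, Prss35, Nrk, C1qtnf3, Adam12 and Gm36827), with a median deviation of -0.36, and yet the highest in Plekhg4.

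These standings moved in part with the scaling. With total counts alone aged mouse 5 was the highest of its group in 2 genes and aged mouse 2 in 3, young mouse 5 was the lowest of its group in 4 genes, and the highest young level of A2m was in young mouse 2 and not young mouse 3. Osteoblast markers took 4.01% of the counts in aged mouse 5, the highest share of the aged group, and 4.73% in young mouse 5, the lowest share of the young group. In aged mouse 4 the share was 2.51%, above those of aged mice 1 and 3 (2.05% and 1.53%). Whether that share has a part in the standing of these mice was not tested.

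**Figure D3:**
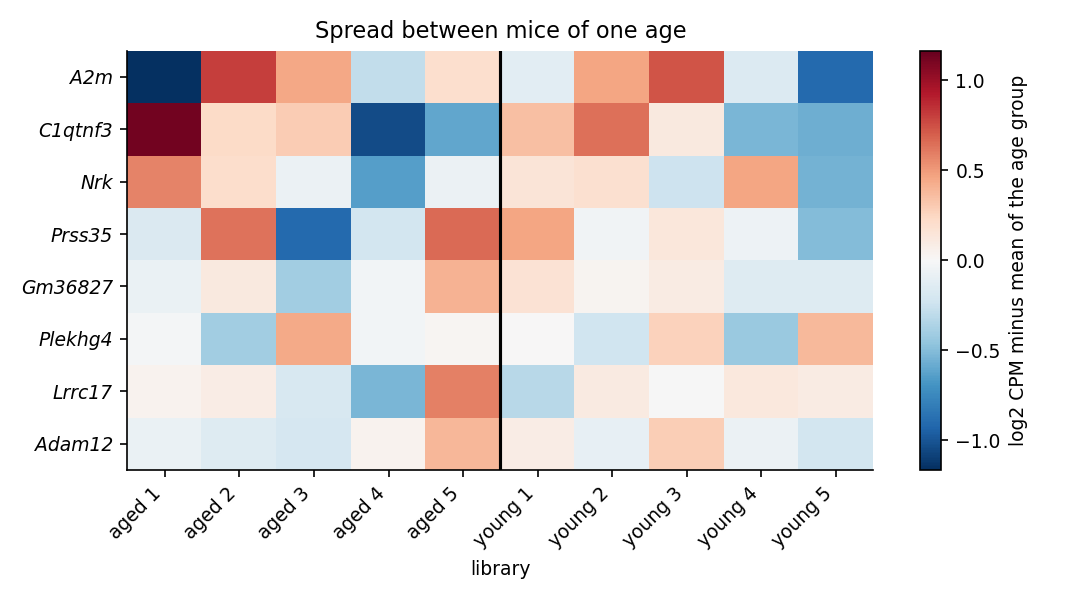
Deviation of each library from the mean of its own age group in log2 CPM, with genes in rows and libraries in columns, aged libraries left of young ones. Young mouse 5 is below its group mean in 6 of the 8 genes and has the lowest median deviation, -0.36.

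Since the osteoblast markers took a smaller share of the counts in aged femurs, each gene was also set against markers of 3 skeletal lineages. The measure was the log2 ratio of the gene's CPM to the mean level of the markers in the same library. Markers of tendon and periosteum took 0.0458% ± 0.0247 of the counts in aged mice and 0.117% ± 0.0234 in young mice (exact permutation p = 0.00794, n = 5 each), and chondrocyte markers took 0.0963% ± 0.0329 in aged mice and 0.177% ± 0.0459 in young mice (exact permutation p = 0.0238, n = 5 each). Of 10 osteoblast markers 5 were lower by the whole-table test, of 9 tested chondrocyte markers 5, and of 9 tendon and periosteum markers 2. No marker of these lists was at 0 over all libraries together. Cell division genes took 0.129% ± 0.0313 in aged mice and 0.201% ± 0.0548 in young mice (exact permutation p = 0.0238, n = 5 each). Without young mouse 4 that p was 0.0635.

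Against the osteoblast markers, 5 genes were still lower in every aged library than in every young one, as were 0.127% of all tested genes by the same ratio. The difference of the log2 ratio (aged minus young) was -3.21 for A2m, -2.06 for C1qtnf3, -1.94 for Prss35, -1.72 for Nrk and -1.07 for Gm36827. Plekhg4 (-0.69), Lrrc17 (-0.47) and Adam12 (-0.18) were lower on average but the groups overlapped. Against the tendon and periosteum markers, A2m (-3.43), C1qtnf3 (-2.29), Prss35 (-2.16) and Nrk (-1.94) did not overlap between the ages, a pattern of 0.163% of all tested genes. Against the chondrocyte markers only A2m did not overlap (-2.52, where 0.0136% of all tested genes were lower without overlap), 6 of the 8 genes were lower on average, and Adam12 and Lrrc17 were higher on average (0.50 and 0.22). These ratios use the contrast on which the members were chosen and are a description.

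**Figure D4:**
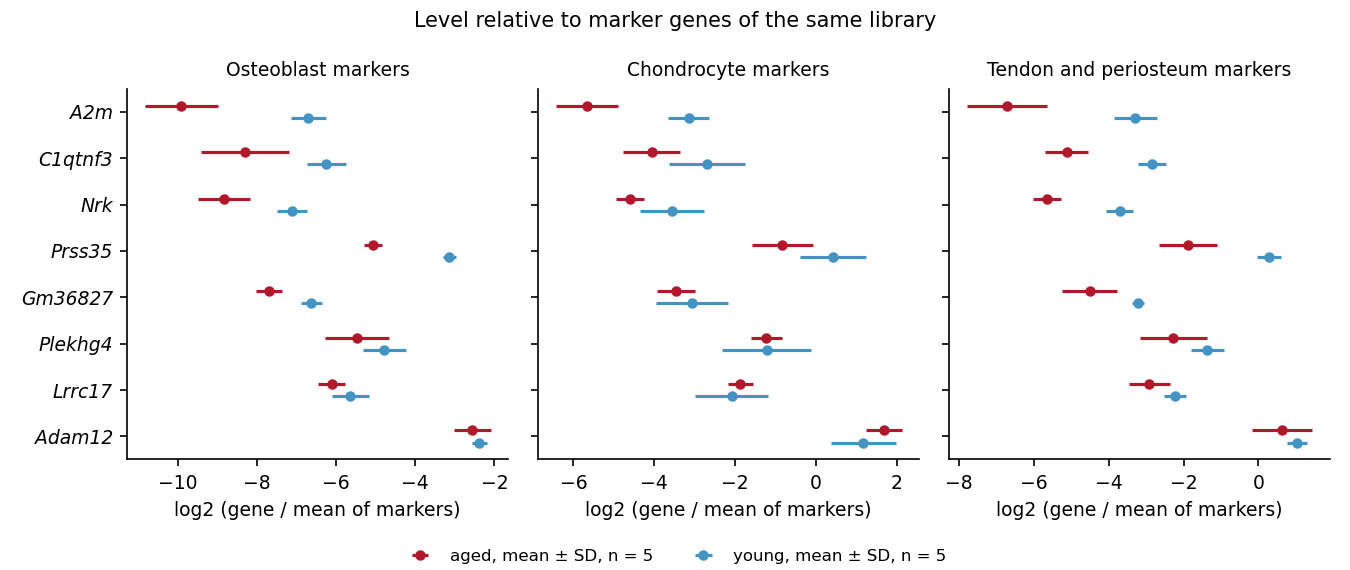
Log2 ratio of each gene to the mean level of osteoblast, chondrocyte or tendon and periosteum markers in the same library, 1 panel per lineage, with points at the means and bars of ± 1 SD over 5 aged libraries (upper point of each gene) and 5 young libraries (lower point). Against osteoblast markers the aged mean is furthest below the young mean for A2m (-3.21) and nearest to it for Adam12 (-0.18), and against chondrocyte markers the aged mean of Adam12 is the higher by 0.50.

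The families and partners of the members were read from 9 lists of textbook relatives, receptors, substrates and pathway genes, 107 genes in all, none of them a member. Of these, 93 were tested, 12 were below the filter and 2 were not analysed here. In the quasi-likelihood test of edgeR, Benjamini-Hochberg adjusted over the 22088 tested genes and with a limit of 0.05, 11 of the 93 fell and 8 rose in aged mice, 11.8% and 8.60%, where 3.61% of all tested genes fell and 3.68% rose. Their median log2 fold change was 0.02 and that of all tested genes 0.01. The lists were written with earlier results of these data known, so these shares are a description. With total counts alone 14 fell and 3 rose, and the split over all genes was 917 lower and 285 higher in place of 798 and 812. Leaving out young mouse 2 left 7 that fell and 2 that rose, leaving out young mouse 4 left 7 and 3, and leaving out aged mouse 3 left 9 and 4.

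The secreted and membrane serine proteases are a wider group than the trypsin family of Prss35. Of the 10 tested from the list, 4 fell and 0 rose in aged mice. The list holds only part of the group. It leaves out F7, Habp2 and Gzmk, among others, which the study's supplement lists as higher in aged bone. Htra1, a secreted protease that degrades matrix proteoglycans, averaged 20.8 ± 7.24 CPM in aged mice and 57.1 ± 6.52 CPM in young mice (log2 fold change -1.45, SE 0.22, edgeR adjusted p = 0.00349). Its paralog Htra3 averaged 25.5 ± 5.21 CPM in aged mice and 51.6 ± 6.14 CPM in young mice (-1.02, SE 0.14, edgeR adjusted p = 0.00109). Htra4 (log2 fold change -1.13, edgeR adjusted p = 0.0369) and Fap, a surface protease of activated fibroblasts (-0.89, edgeR adjusted p = 0.0474), fell too, and both calls were lost without young mouse 2, 3 or 4, or aged mouse 2 or 4, among others. Plau, the urokinase gene, had a log2 fold change of 0.20 and Prss23 of -0.89 without passing the test, though Prss23 passed with DESeq2, with total counts alone and without aged mouse 1 (adjusted p = 0.0266, 0.0379 and 0.0167).

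The C1q and TNF related proteins, the family of C1qtnf3, held 3 genes of 11 tested that fell. C1qtnf6 averaged 13.6 ± 5.25 CPM in aged mice and 40.7 ± 4.08 CPM in young mice (log2 fold change -1.58, SE 0.21, edgeR adjusted p = 9.8e-04). C1qtnf1 averaged 8.88 ± 1.88 CPM in aged mice and 15.9 ± 1.06 CPM in young mice (-0.83, edgeR adjusted p = 0.00369), and C1qtnf12 averaged 31.2 ± 6.07 CPM in aged mice and 48.1 ± 8.82 CPM in young mice (-0.63, edgeR adjusted p = 0.0250, a call lost without young mouse 2 or 4). Adipoq, the adipocyte hormone adiponectin (0.02), and C1qtnf9 (0.25) did not pass.

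Among the relatives of A2m, which share its thioester fold or clear it, 2 of 7 tested rose. C4b, a complement component, averaged 53.3 ± 12.7 CPM in aged mice and 26.9 ± 7.0 CPM in young mice (log2 fold change 0.99, SE 0.20, edgeR adjusted p = 0.0118). Its near-identical copy C4a averaged 2.25 ± 0.205 CPM in aged mice and 1.43 ± 0.160 CPM in young mice (0.65, edgeR adjusted p = 0.0266), a call lost with total counts alone (adjusted p = 0.181 by the same edgeR test) and without any of 4 single libraries (aged mouse 3 or 5, young mouse 2 or 4), with the replicate block (0.0590) and with no filter on low counts (0.0624), and reads of the pair could be split between them. C3 (0.26) and Lrp1, the receptor for A2m bound to a protease (651 ± 76.9 CPM in aged mice and 759 ± 50.7 CPM in young mice), did not pass. Pzp, a close mouse relative of A2m, was below the filter, at 0.128 CPM in aged mice and 0.132 CPM in young mice.

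Of the 10 ADAM proteases tested beside Adam12, 0 fell and 0 rose by edgeR. At an unadjusted p under 0.05 there were 1 lower and 3 higher, with DESeq2's adjusted p there were 1 lower and 1 higher (Adam10 and Adam8), and with limma-voom 0 and 0. The log2 fold changes were -0.36 for Adam10 and 0.48 for Adam8. Adam8 also passed in 5 other settings of edgeR, with adjusted p of 0.00856 with muscle markers as a covariate, 0.0290 with the replicate block, 0.0312 with no filter on low counts, 0.0491 with the size factors of DESeq2 and 0.0269 without aged mouse 1. Of 6 ADAM12 substrates tested, Igfbp3, a carrier of insulin-like growth factors, fell to 7.99 ± 1.87 CPM in aged mice, against 21.0 ± 1.76 CPM in young mice (log2 fold change -1.39, SE 0.16, edgeR adjusted p = 3.3e-04). Egf, the epidermal growth factor precursor, averaged 13.1 ± 5.21 CPM in aged mice and 6.48 ± 0.994 CPM in young mice (1.01, edgeR adjusted p = 0.0154, but 0.0511 without young mouse 2). Igfbp5 (-0.10) and Dll1 (0.11) did not pass.

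Of 14 tested genes on the list of leucine-rich repeat proteins, the class of Lrrc17, 2 fell and 2 rose. The list holds only part of that class. It leaves out Lum, Omd, Kera and Dcn, among others, which the study's supplement lists as lower in aged bone. Lrrc15, a surface protein of osteoblast precursors and fibroblasts, averaged 5.07 ± 1.93 CPM in aged mice and 29.1 ± 3.09 CPM in young mice (log2 fold change -2.52, SE 0.26, edgeR adjusted p = 3.2e-04). Podnl1 averaged 25.9 ± 5.32 CPM in aged mice and 43.5 ± 9.47 CPM in young mice (-0.75, edgeR adjusted p = 0.0174). Its paralog Podn averaged 15.5 ± 3.58 CPM in aged mice and 7.84 ± 2.12 CPM in young mice (0.98, edgeR adjusted p = 0.00877). Lgr6, a receptor for R-spondins, rose (log2 fold change 0.64, edgeR adjusted p = 0.0202), a call lost with total counts alone and without young mouse 2 or 4. Chad, a cartilage matrix protein gene, did not pass (log2 fold change -1.19, edgeR adjusted p = 0.0621), though every aged library was below every young one and it passed with DESeq2 (adjusted p = 0.00462), with the filter of 1 CPM in 5 libraries, and without aged mouse 1, 2 or 4. Lrig2 (-0.13) did not pass.

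Of 10 RANKL axis and osteoclast genes, Tnfsf11, which encodes RANKL, averaged 2.31 ± 0.654 CPM in aged mice and 4.78 ± 1.91 CPM in young mice (log2 fold change -1.04, edgeR adjusted p = 0.0323), a call lost without any of 6 single libraries (aged mouse 1, 2 or 3, young mouse 2, 3 or 4) and at adjusted p = 0.0623 with the replicate number as a block. The osteoclast products Ctsk (-0.86) and Acp5 (-0.89) did not pass.

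Of 13 tested genes of the germinal center kinase family and the JNK cascade, to which Nrk belongs, Mink1 averaged 94.2 ± 18.4 CPM in aged mice and 62.6 ± 10.5 CPM in young mice (log2 fold change 0.59, edgeR adjusted p = 0.0256), and Tnik averaged 82.9 ± 20.9 CPM in aged mice and 52.3 ± 10.2 CPM in young mice (0.66, edgeR adjusted p = 0.0390). Both are germinal center kinases like Nrk, and both calls were lost with total counts alone and without young mouse 2 or 4 or aged mouse 3, Tnik's also without aged mouse 1 or 4 or young mouse 1 or 3 and with muscle markers as a covariate. Map4k4 (0.05) and Map4k2 (0.26) did not pass.

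**Figure D5:**
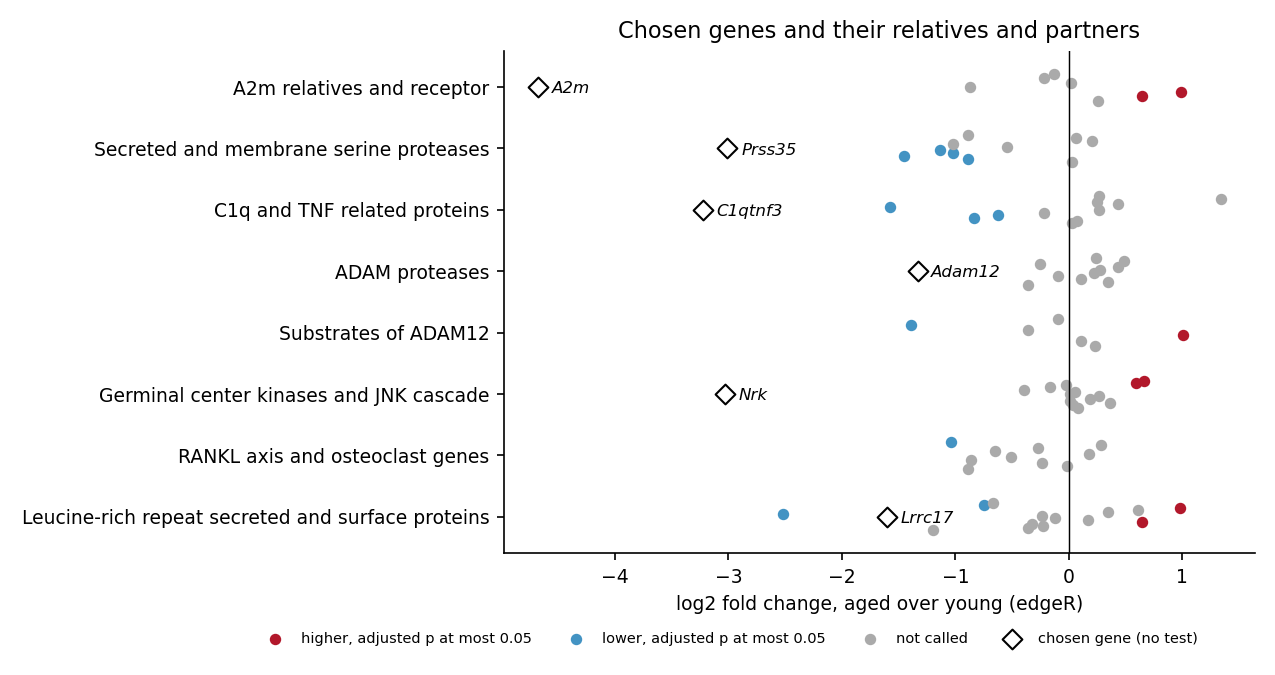
Log2 fold change (aged over young) of the tested relatives and partners in 8 of the 9 lists, by list, with genes that passed the adjusted p of 0.05 in red (higher) or blue (lower), the others in grey, and the chosen genes as open diamonds with no test. The serine proteases and the C1q and TNF related proteins have 4 and 3 genes that fell, and Lrrc15, at -2.52, is the lowest of these relatives.

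The nearest annotated gene on either side of each member was read too, with a test where it passed the filter. Amacr, a peroxisomal racemase gene 1.61 kb after C1qtnf3 on the same strand, averaged 4.56 ± 0.707 CPM in aged mice and 4.38 ± 0.866 CPM in young mice (log2 fold change 0.06, edgeR adjusted p = 0.853). Slc9a5, a sodium-proton exchanger gene 3.39 kb before Plekhg4, averaged 13.2 ± 3.03 CPM in aged mice and 11.3 ± 2.46 CPM in young mice (0.23, edgeR adjusted p = 0.442). Further nearest genes had log2 fold changes of 0.82 for Iqsec3 beside A2m, -0.60 for Fank1 and -0.15 for D7Ertd443e beside Adam12, 0.53 for Lrrc36 beside Plekhg4 and 0.28 for Fam185a beside Lrrc17 (edgeR adjusted p = 0.192, 0.249, 0.810, 0.199 and 0.319). The nearest genes of Prss35 and Nrk, Mug1 after A2m, Gm29742 before C1qtnf3 and Gm6543 after Lrrc17 were below the filter and not tested. Over all aged and all young libraries, Il1rapl2 before Nrk had 43 and 7 counts, and Snap91 after Prss35 had 24 and 62. Mug1 had 40 and 18, and the others had at most 12 in either group. No source used here gives the strand setting of the counting, so reads from overlapping genes may be shared. Lrrc17 lies wholly inside Fbxl13 on the opposite strand, and Fbxl13 was at 0.422 ± 0.100 CPM in aged mice and 0.506 ± 0.143 CPM in young mice (-0.24, edgeR adjusted p = 0.625). Gm19514 lies inside Adam12 on the same strand and averaged 3.04 ± 0.868 CPM in aged mice and 6.71 ± 0.955 CPM in young mice (-1.13, SE 0.20, edgeR adjusted p = 0.00521). A130023I24Rik and Gm23631, also inside Adam12, and Kctd19, which shares 56 bases with Plekhg4 on the opposite strand, were below the filter. The nearest genes to Gm36827, Gm48053 at 55.6 kb and Gm40652 at 135 kb, were below it too, with 11 and 35 counts over all aged libraries and 7 and 30 over all young ones.

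The genes whose profile over the 10 libraries was nearest to that of each member were found by the root mean square difference of centred log2 CPM, in which most of the spread is the difference between the ages itself. Counting error adds to this difference, so its size cannot be compared between members counted to different depths. Adam12, the most deeply counted member and the one with the smallest fall, had the smallest differences. Its nearest genes were the collagen genes Col5a1 (0.16) and Col6a3 (0.17) and the peroxidase gene Gpx7 (0.18). Lrrc17 was nearest to Col6a3 (0.20), Igfbp3 (0.24) and the gelatinase gene Mmp2 (0.24). Nrk was nearest to the netrin receptor gene Dcc (0.33), the collagen gene Col12a1 (0.35) and the lysyl oxidase gene Loxl2 (0.36).

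C1qtnf3 was nearest to Nrk (0.50), Lrrc15 (0.58) and Col3a1 (0.59), the only member with another member first. A2m was nearest to the noncoding RNA Gm26633 (0.62), the cartilage proteoglycan gene Acan (0.83) and Prss35 (0.91). Prss35 was nearest to Gnasas1 (0.46), Fetub (0.47) and the osteocalcin gene Bglap2 (0.52). Gm36827 was nearest to the fibrillin gene Fbn2 (0.28), Myo16 (0.29) and Col11a1 (0.31), and Plekhg4 to Myo16 (0.34), Lurap1l (0.36) and the glutamate receptor gene Gria2 (0.36). Between members, with each library centred on its age group, Adam12 and Gm36827 differed least (root mean square difference 0.14). Acan averaged 4.77 ± 3.39 CPM in aged mice and 44.5 ± 17.4 CPM in young mice (SD, n = 5 each).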

How the data were processed

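Poly(A) RNA of femurs from 5 aged and 5 young mice was sequenced after removal of ribosomal RNA. The deposited table holds raw counts per gene, for which the authors ran Cutadapt, STAR on GRCm38.p6, and then featureCounts. The labels name the build hg38, but the gene IDs are mouse. No source used here gives the annotation release or strand setting. The counts were filtered (minimum count 10, minimum total 15), scaled by the trimmed mean of M values and tested with edgeR 4.0.16 (quasi-likelihood, Benjamini-Hochberg over 22088 genes, R 4.3.3). DESeq2 1.42.0 and limma 3.58.1 were alternatives, and the prior count for log2 CPM was 2. TPM used the table's exon lengths. The statistics were tested on simulated data. The members and lists were chosen with earlier results of these data known. Text names all members, called relatives (up to 5 per list), the 2 most abundant not called, the 3 nearest profiles, and overlapping or neighbouring genes, of which the nearest genes of members other than Gm36827 were added after their values were seen. Each library is a different mouse, so p-values measure the spread between mice. Depth was 31788232 to 45075335 counts per library, and counting error is given for A2m, Nrk, C1qtnf3 and Gm36827. Promoter sequences are from RefSeq. The genes of 1 list enter the totals only, and its result is not reported here.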

Additional observations from a re-analysis of the deposited data

Results flagged for a closer look

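In each of 34 groups of 5 libraries (16 of member levels and 18 of marker shares), the highest or lowest library was compared with the rest of its own group, and a library far from the others is seen by chance in about 5% of groups. No member level stood apart in this way. Red cell precursor markers took 1.12% of the counts in aged mouse 2, where the next aged library had 0.454%. Cell division genes took 0.184% in aged mouse 2, where the next aged library had 0.124%. Adipocyte markers took 0.0116% in young mouse 2, where the next young library had 0.00693%.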

How the results depend on the processing

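Each of the 8 members kept its direction under all 20 alternatives that were fitted over all genes. With total counts alone the log2 fold change of Gm36827 went from -2.26 to -2.42. Its SD of log2 CPM was 0.14 between young mice and 0.30 between aged mice, where its fewer counts add more counting error. The median log2 fold change of the members lay between -2.71 and -2.51 with 1 library left out, and between -2.78 and -2.57 under the other settings. Counts of calls moved more. Over all genes, 812 rose and 798 fell, while DESeq2 gave 1545 and 1237, and total counts alone gave 285 and 917 with the median log2 fold change of all genes shifted to -0.16. With 1 library left out, between 300 and 856 genes rose and between 386 and 830 fell, the lowest without young mouse 2. Among the relatives, 8 rose and 11 fell, DESeq2 gave 9 and 16, total counts alone gave 3 and 14, and with 1 library left out between 2 and 10 rose and between 7 and 13 fell. The share of osteocyte markers differed by -0.0130 percentage points (aged minus young), and by -0.0215 to -0.00763 with 1 library left out. Without aged mouse 2 its exact permutation p was 0.0476 and not 0.278. That of cell division genes lay between -0.0878 and -0.0513. The causes were not tested.

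Replicate numbers name different mice. Same-numbered mice did not deviate together, with correlations across 22088 genes of -0.15, 0.04, 0.17, 0.16 and -0.08 for numbers 1 to 5. With the replicate block 957 genes rose and 675 fell, 7 relatives rose and 8 fell, and the median of the members was -2.65. Low counts limit A2m, Nrk, C1qtnf3 and Gm36827 in aged mice.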
